A study of Mus musculus with 237 samples.

Results

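Cells labelled as Pax2 mutant cap mesenchyme at E18.5 (E for embryonic day) were set against wild-type cells labelled as cap mesenchyme and cells derived from it, at the same age, across all measured genes. Cells were taken by source name, genotype and age, which gave 44 mutant and 74 wild-type cells, or 118 of the 237 cells in the series. The cells came from embryonic mouse kidneys of mixed strain, were enriched by flow sorting after proteolytic digestion, and were captured singly on a Fluidigm C1 microfluidic device for RNA sequencing. The other cells are 71 wild-type interstitium cells of E18.5, 29 Pax2 mutant and 18 wild-type cap cells of E13.5, and 1 cell with disagreeing labels that entered no comparison. The titles of the interstitium cells carry the tag FoxD1_GCE, although their genotype label reads wild type. The Pax2 mutant allele, any Cre driver behind it and the markers used in sorting are not given in the sources used here, nor is the embryo of any cell. The source name of the wild-type group covers cap mesenchyme and cells derived from it. That of the mutant group names cap mesenchyme and does not mention derived cells. Whether the mutant group also holds derived cells cannot be read from that name.

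Pax2 is a paired-box transcription factor of the nephron lineage. The cap mesenchyme holds the self-renewing progenitors of the nephron, which express Six2, and the Foxd1-expressing progenitors around them give rise to the interstitium, the stroma of the kidney, whose cells make fibrillar collagen. The title of the series names Pax2 in repressing interstitial identity within nephron progenitors, and this comparison sets mutant cells beside their wild-type counterparts late in gestation.

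Because no label names an embryo, each group counted as 1 sample, and no test between the groups was possible. Values are RPKM, reads scaled to gene length and to the mapped reads of a cell, and detection means at least 1 RPKM in that cell. A difference is the mean of log2(RPKM + 1) over mutant cells minus that over wild-type cap cells, in log2 units, and understates the change of weakly expressed genes. SDs are between cells, and intervals on shares of cells are exact Clopper-Pearson intervals at 95%, for counting error alone. A fall in the share of cells expressing a gene and a fall in its level per cell both lower such a mean. Differences of 1 log2 unit or more were counted as higher or lower, with no claim of significance.

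Fewer genes were detected in mutant cells, with a median of 3643 (range 2284 to 5109), than in wild-type cap cells, with a median of 5210.5 (range 1656 to 7215). The comparison was therefore repeated in cells with 3000 to 5000 detected genes, 33 mutant cells with a median of 3769 genes and 26 cap cells with a median of 4145. This range also kept a different mix of cap cells. At least 5 of 9 stromal markers (named below) were detected in 5 of these 26 cap cells, against 7 of all 74. The median number of progenitor markers was 4 of 9, against 7 over all cap cells. The pseudogene entry LOC100503946 reached 20000 RPKM or more in 4 mutant and 20 cap cells, and in 1 mutant and 12 cap cells of the matched range. Without these cells, 476 genes were higher and 3475 lower by the rule used below. Most cells of both groups, 42 of the 44 mutant and 67 of the 74 cap cells, had Xist and no Y-linked transcript. The titles give the groups different dates and pools (pool 4 for mutant cells, pool 2 for cap cells), so genotype, date and pool cannot be told apart.

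Of 11100 genes reaching detection in at least 10% of mutant or of cap cells, 501 (4.51%) were higher in mutant cells and 2573 (23.2%) were lower. In cells with 3000 to 5000 genes the counts were 978 higher (9.17%) and 1125 lower (10.5%) of 10665 genes. Leaving out the cells of this range that were high in the pseudogene, which kept 32 mutant and 14 cap cells, gave 764 higher and 1853 lower. The median gene differed by -0.40 log2 units over all cells and by -0.06 in the matched range. Measured from the all-cell median, 958 genes were higher (8.63%) and 1539 lower (13.9%). Among genes that entered both comparisons, 455 (4.37%) were higher and 1017 (9.76%) lower in both. These were 90.8% of the genes higher over all cells and 39.5% of those lower over all cells. The share of lower genes was thus smaller in the matched range (10.5%), and was 17.9% there without the pseudogene-high cells. Whether the number of genes detected per cell or the choice of cap cells shaped these counts was not tested, for single genes or for the lists. Counts of list members below stand against the shares given here, which are of genes that passed the detection filter. Listed members that did not pass could not be called, yet most counts below are over all listed members. Over all cells, 6 of 10 small leucine-rich proteoglycans, 13 of 20 immediate early and stress genes and 9 of 12 mural and smooth muscle genes passed. So did 17 of 26 secreted ligands, 15 of 20 growth factor antagonists and 13 of 18 complement, interferon-inducible and class I genes.

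**Figure D1:**
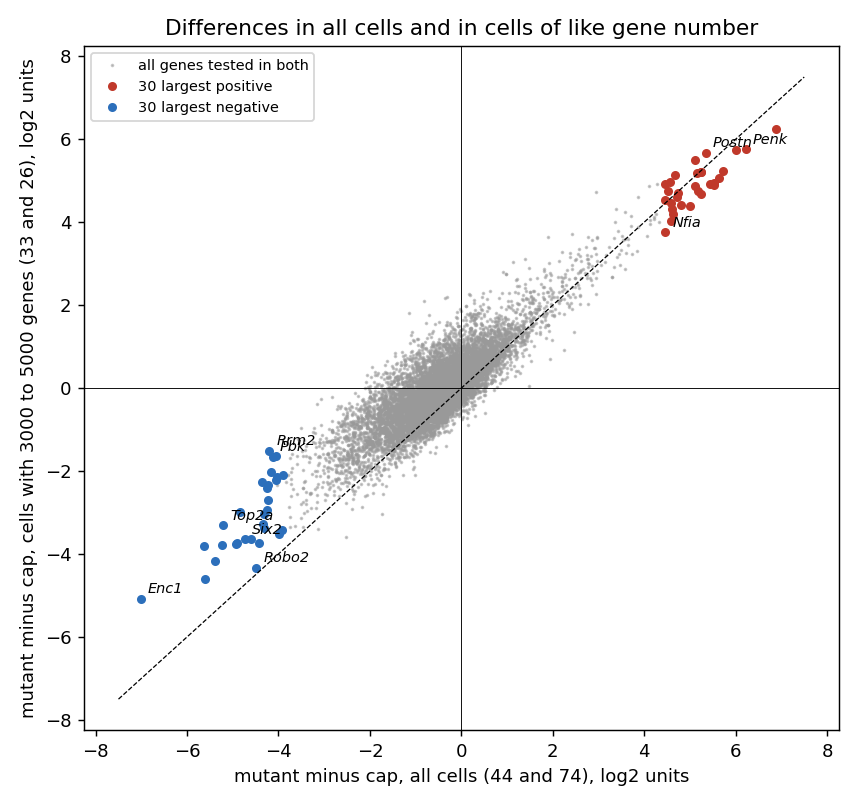
Difference between mutant and wild-type cap cells in log2 units for each gene, over all cells (x axis, 44 mutant and 74 cap cells) and in cells with 3000 to 5000 detected genes (y axis, 33 mutant and 26 cap cells); red and blue points mark the 30 largest positive and 30 largest negative differences, and the dashed line marks equal values. The red points lie near the line (Penk 6.22 and 5.76), while most blue points lie nearer to 0 in the matched range (Rrm2 -4.21 and -1.51) with Robo2 (-4.48 and -4.33) close to the line.

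Pax2 itself, which lies on chromosome 19 (44757394 to 44837869, mm10), was listed at 0 RPKM in all 44 mutant cells. A count of 0 in 44 cells has an exact upper limit of 8.04%, for this and other genes. In wild-type cap cells its lowest, median and highest values were 0, 5.98 and 120 RPKM, and 56 of 74 cells (75.7%, interval 64.3 to 84.9%) were at 1 RPKM or more. The wild-type cells at 0 overlap the mutant cells, so absence of Pax2 transcript does not identify a single cell's genotype. Whether the deleted part of the gene is the part measured cannot be read from a value per gene.

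The markers of both lineages separated the groups. Enc1, an actin-binding Kelch-family protein, ran from 0 through a median of 0 to 428.8 RPKM in mutant cells and from 0.847 through 600 to 9039 RPKM in cap cells, and showed the most negative difference of the genes ranked (-7.02, and -5.08 in the matched range). In 38 of 44 mutant cells Enc1 was below 1 RPKM, against 2 of 74 cap cells, while the highest mutant cells reached levels seen in cap cells. Penk, the enkephalin precursor, had 0, 450 and 3419 RPKM as its lowest, median and highest values in mutant cells, against 0, 0 and 1346 RPKM in cap cells. It was detected in 41 of 44 mutant cells (93.2%, interval 81.3 to 98.6%) and 19 of 74 cap cells (25.7%, interval 16.2 to 37.2%), so the groups overlapped. Pdgfra, a receptor for platelet-derived growth factor in mesenchyme, reached 1 RPKM in 41 of 44 mutant and 8 of 74 cap cells.

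**Figure D2:**
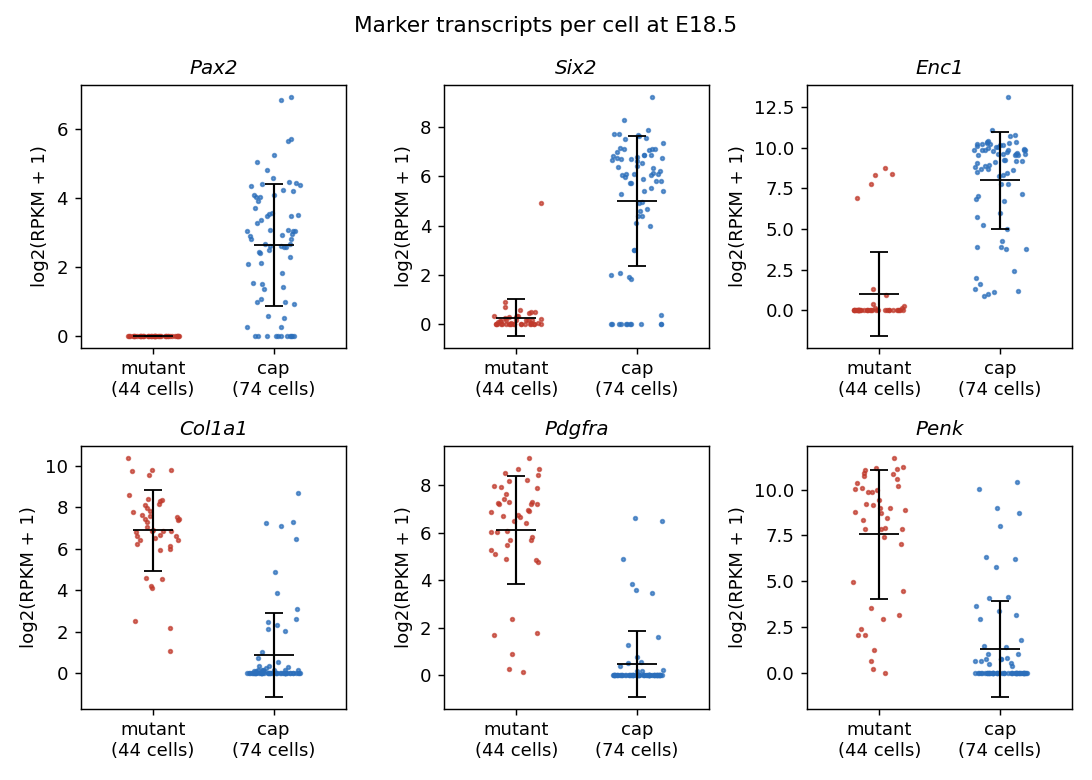
Level of 6 marker transcripts in each E18.5 cell as log2(RPKM + 1), with mutant cells (44) left of wild-type cap cells (74) in each panel; each point is a cell, and the horizontal line and bar give the mean and SD between cells. Pax2, Six2 and Enc1 are near 0 in most mutant cells, and Col1a1, Pdgfra and Penk are near 0 in most cap cells, with a minority of cells of each group at the level of the other group for Enc1, Col1a1, Pdgfra and Penk. Pax2 and Six2 overlap at low levels, with 56 and 62 of 74 cap cells at 1 RPKM or more, and 1 mutant cell (4.90) lies in the cap range for Six2.

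Counted within cells, 9 nephron progenitor markers (Six2, Eya1, Sall1, Cited1, Crym, Osr1, Gdnf, Itga8 and Meox1) and 9 stromal markers (Col1a1, Col1a2, Col3a1, Pdgfra, Pdgfrb, Postn, Dcn, Lum and Meis1) gave nearly opposite profiles. Mutant cells had a median of 0.5 progenitor markers (range 0 to 2) and 7 stromal markers (range 4 to 9). Wild-type cap cells had a median of 7 progenitor markers (range 1 to 9) and 1 stromal marker (range 0 to 8). None of the 44 mutant cells had 3 or more progenitor markers, against 68 of 74 cap cells. At least 5 stromal markers were found in 43 mutant cells and in 7 cap cells. The mutant cell with 4 was the cell with 8 of 10 immune markers described below. The marker profile of the mutant cells thus went against the cap mesenchyme named in their source name, and they are called mutant cells here. Interstitium cells, for comparison, had medians of 2 progenitor markers (range 0 to 9) and 7 stromal markers (range 1 to 9).

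**Figure D3:**
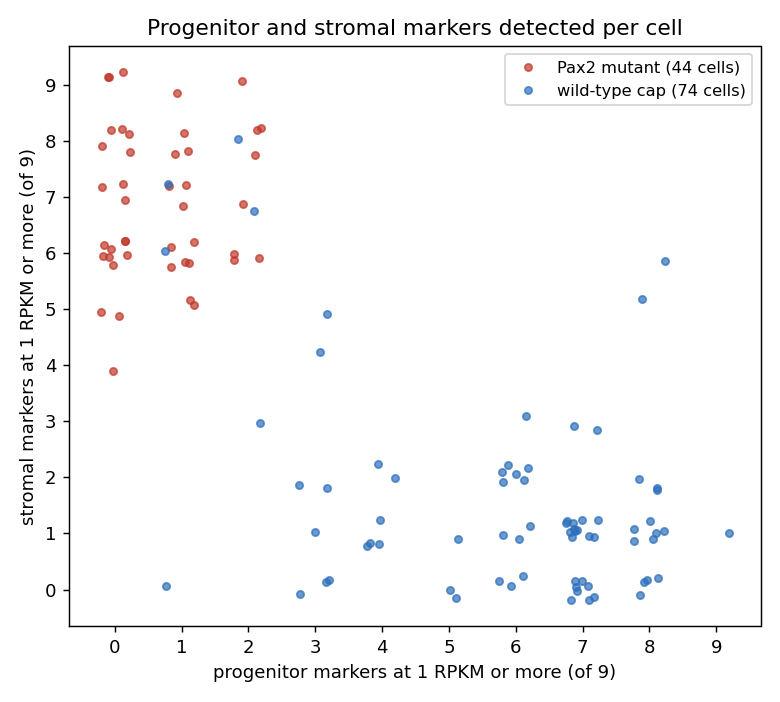
Number of stromal markers (y axis, of 9) against number of nephron progenitor markers (x axis, of 9) at 1 RPKM or more in each E18.5 cell, with points moved slightly to show overlaps. The 44 mutant cells lie at 0 to 2 progenitor and 4 to 9 stromal markers, and most of the 74 wild-type cap cells lie at 3 or more progenitor and at most 2 stromal markers.

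Nephron progenitor transcription factors were lower in mutant cells for 12 of the 20 listed and higher for none, with a list median of -1.63 log2 units, against -0.40 for all genes. In the matched range 9 were lower and the list median was -0.69. Beyond Six2 and Eya1, detected in 1 mutant cell each, the homeobox gene Uncx was listed at 0 in every mutant cell and detected in 40 of 74 cap cells (-1.87, and -2.08 in the matched range). Differences among the Hox genes were smaller in the matched range, where Hoxd11, which patterns the posterior axis, stood at 0.00 against -0.90 over all cells, and Hoxd10 at -0.83 against -1.67. Wt1, which nephron progenitors and later podocytes express, remained detected in 25 of 44 mutant cells and in 71 of 74 cap cells.

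Among 20 signals and surface proteins of progenitors, 13 were lower in mutant cells and 1 was higher. Robo2, a receptor for Slit guidance ligands, had the largest difference of the 22 axon guidance genes listed. Its lowest, median and highest values were 0, 0.0233 and 30.9 RPKM in mutant cells and 0, 57.6 and 539.7 RPKM in cap cells, with means of 1.23 ± 1.78 in mutant and 5.72 ± 1.40 in cap cells (log2 scale, SD, n = 44 and 74 cells). The difference was -4.48 over all cells and -4.33 in the matched range, where 12 of 33 mutant and 26 of 26 cap cells had the transcript. Cdh4, which encodes R-cadherin, was listed at 0 in all mutant cells and detected in 46 of 74 cap cells (-2.49). The integrin subunit gene Itga8, whose product binds nephronectin of the ureteric bud, was detected in 3 mutant and 54 cap cells (-2.58). Enpp2, which encodes autotaxin, the enzyme that makes lysophosphatidic acid, was detected in 6 mutant and 57 cap cells (-3.46, and -1.63 in the matched range). The exception was Rspo3, a secreted enhancer of Wnt signalling, which was higher by 1.33 over all cells but by 0.54 in the matched range. Gpc3, a heparan sulfate proteoglycan of the cell surface, was detected in every mutant and every cap cell and differed by 0.76.

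The list for the committing nephron had few measurable members. Only 5 of 12 passed the detection filter, of which 1 was lower and 1 higher. Pla2g7, which encodes a lipoprotein-associated phospholipase, was lower by 3.83, detected in 3 mutant and 52 cap cells, and the Notch ligand gene Jag1 was higher by 1.29, detected in 15 mutant and 14 cap cells. Lhx1 and Fgf8, markers of the early nephron vesicle, were listed at 0 in all cells of both groups.

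Stromal transcription factors were higher in mutant cells for 15 of 25 listed and lower for 1, with a median of 1.17 over all cells and 1.52 in the matched range. The NFI family was among them. Nfia ran from 1.90 through a median of 96.1 to 377.8 RPKM in mutant cells and from 0 through 1.15 to 1551 RPKM in cap cells, so that every mutant cell and 40 of 74 cap cells had it at 1 RPKM or more. The mean was 6.35 ± 1.26 in mutant cells and 1.90 ± 2.12 in cap cells (SD, n = 44 and 74 cells), a difference of 4.45. Nfib differed by 4.58, detected in 40 mutant and 17 cap cells, and Nfix by 2.21, detected in 26 mutant and 6 cap cells. These factors act in differentiation of many tissues, and all 3 kept a difference above 2 log2 units in the matched range.

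Further factors of mesenchyme were detected in part of the mutant cells. Ebf1 and Ebf3, helix-loop-helix factors of the EBF family, were detected in 26 and 22 of 44 mutant cells and in 5 and 3 of 74 cap cells. Prrx1, a homeobox factor of limb and craniofacial mesenchyme, was detected in 22 mutant and 6 cap cells, and in 18 and 0 cells of the matched range. Runx1t1, a transcriptional corepressor, was detected in 28 mutant and 14 cap cells. Snai2, a zinc-finger repressor of epithelial genes, was higher by 1.50, but 27 of 74 cap cells also had it. Tbx18, a T-box factor of mesenchyme around the ureter, was at 1 RPKM or more in 10 of 44 mutant cells (22.7%, interval 11.5 to 37.8%) and listed at 0 in all 74 cap cells, where a count of 0 has an exact upper limit of 4.86%. The same transcript was detected in 1 of 71 interstitium cells. Against the direction of the list, the zinc-finger gene Tshz2 was lower by 1.49, detected in 18 mutant and 61 cap cells.

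Of 14 fibrillar and network collagens, 10 were higher and none lower, with a list median of 2.46 over all cells and 2.39 in the matched range. The list mean per cell was 3.19 ± 1.09 in mutant cells and 0.49 ± 0.73 in cap cells (log2 scale, SD, n = 44 and 74 cells). Only 10 of 74 cap cells reached the lowest mutant value, but 33 of 44 mutant cells lay at or below the highest cap value. The lowest mutant value, 0.71, was that of the cell with 8 of 10 immune markers described below. Col3a1, the gene of type III collagen on chromosome 1 (45311538 to 45349706), had 2.59, 115 and 1211 RPKM as its lowest, median and highest values in mutant cells, against 0, 0 and 178.8 RPKM in cap cells. All 44 mutant cells and 12 of 74 cap cells had it at 1 RPKM or more. Col5a1 and Col5a2, which encode chains that join type I fibrils, were higher by 2.16 and 2.76, and Col14a1, a fibril-associated collagen, by 1.09 with detection in 11 mutant and 2 cap cells.

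Enzymes that process collagen were higher for 7 of 16 measured and lower for 1. Loxl1 and Lox, lysyl oxidases that crosslink fibres, were higher by 1.64 and 1.59, Pcolce, an enhancer of procollagen cleavage, by 1.79, and Bmp1, a procollagen proteinase, by 1.95 over all cells and 0.71 in the matched range. P4ha3, a subunit of prolyl 4-hydroxylase, went the other way, with a median of 0 RPKM (range 0 to 113) in mutant cells and 2.08 RPKM (range 0 to 574) in cap cells. It was found in 2 of 44 mutant cells and 39 of 74 cap cells, a difference of -2.50, and of -2.35 in the matched range.

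Small leucine-rich proteoglycans, which bind collagen fibrils, were higher for 4 of 10 listed. Bgn, biglycan, was higher by 4.45, with detection in 36 mutant and 9 cap cells, and Ogn, osteoglycin, by 3.52, with 31 and 23 cells. Dcn, decorin, was detected in 27 mutant and 8 cap cells, and Lum, lumican, in 14 mutant and 2 cap cells, so that a majority of mutant cells lacked detectable lumican transcript. Omd was detected at a low level in every cell of both groups and differed by -0.73.

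Matrix glycoproteins held the clearest members in both directions, with 14 of 22 higher and 2 lower. Matn2, matrilin-2, ran from 1.01 through 71.4 to 611 RPKM in mutant cells and from 0 through 3.31 to 241 RPKM in cap cells, a difference of 3.71 that was 3.90 in the matched range. Its mean was also above that of interstitium cells, 5.99 ± 1.92 in mutant cells against 2.78 ± 1.77 in interstitium cells (SD, n = 44 and 71 cells). Genotype, sex, pool and cell type cannot be told apart in that comparison, as set out below for the imprinted genes. Other higher members were Mfap5 (2.75), Emilin1 (2.43), Fbln1 (2.37) and Fbn1 (1.99), whose products are found in elastic fibres or microfibrils, while Efemp2, another such gene, stood at -0.20. Vcan, the large proteoglycan versican, went against the list. It had 0, 4.06 and 405.3 RPKM as lowest, median and highest values in mutant cells and 1.09, 148 and 492 RPKM in cap cells. Every cap cell and 24 of 44 mutant cells had it at 1 RPKM or more (-4.00, and -3.53 in the matched range). Tenascin-C, encoded by Tnc, was the other lower member, at -1.54 over all cells and -0.79 in the matched range.

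Basement membrane genes were higher in part. Nid1, nidogen-1, and Lama4, the laminin alpha 4 chain, were each higher by 2.85, Lama2, the laminin alpha 2 chain, by 1.46 and Lamb1 by 1.04, which made 4 of 12 higher and none lower. The type IV collagen gene Col4a2 differed by -0.54, with detection in 16 mutant and 47 cap cells. Proteases and their inhibitors were higher for 8 of 16 and lower for none, among them Serpine2, an inhibitor of serine proteases (3.59), Cst3, cystatin C (2.70), Adamts5, an aggrecanase (2.03), and the gelatinase gene Mmp2 (1.69).

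Of the 18 listed complement, interferon-inducible and class I genes, 8 were higher and none lower, with a median of 0.87 over all cells and 1.17 in the matched range. Serping1, the C1 inhibitor, was higher by 4.62, and C1s, a protease of the classical pathway, by 3.29, with detection in 27 mutant and 5 cap cells. Cd55, the decay-accelerating factor, was higher by 1.72. Ifitm1, Ifitm2 and Ifitm3, membrane proteins that restrict virus entry, were higher by 4.73, 2.76 and 5.01, and are related in sequence. B2m, the invariant chain of class I molecules, was higher by 1.37. The list mean was 2.92 ± 0.79 in mutant and 1.10 ± 0.69 in cap cells (SD, n = 44 and 74 cells).

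Secreted ligands were higher for 7 of 26 and lower for 2. Figf, the lymphatic growth factor VEGF-D, was found in 34 of 44 mutant cells and 3 of 74 cap cells (4.22, and 4.07 in the matched range). Its highest values were 1862 RPKM in mutant cells and 1408 RPKM in cap cells, so the top of the ranges was alike and the number of cells with the transcript was not. Igf1 was detected in 21 mutant and 4 cap cells (2.87), Tgfb2 was higher by 1.97, and the non-canonical Wnt ligand gene Wnt5a by 1.83. Fgf10 and Pgf were the lower members. Fgf10, a ligand of Fgfr2, had a median of 0.361 RPKM in mutant cells and 10.3 RPKM in cap cells and was found in 7 of 44 mutant cells and 56 of 74 cap cells (-2.38, and -1.65 in the matched range).

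Receptors of the stroma were higher for 4 of 15 and lower for 1, with a list median of 0.01. Besides Pdgfra, these were Tgfbr3, the betaglycan co-receptor (3.33), Ddr2, a collagen-binding tyrosine kinase (2.18), and Pdgfrb (1.06, and 0.88 in the matched range). Gfra1, the co-receptor that binds GDNF, was lower by 2.71, with 1 of 44 mutant cells and 43 of 74 cap cells positive. Lpar1, a receptor for lysophosphatidic acid and one of the 30 largest positive differences, had a median of 140 RPKM (range 0 to 700.6) in mutant cells and 0 RPKM (range 0 to 344.5) in cap cells. It was detected in 41 mutant and 19 cap cells and was higher by 5.16, and by 5.18 in the matched range. Autotaxin, described above, makes the ligand of this receptor, and its transcript differed in the opposite direction.

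Growth factor antagonists were higher for 5 of 20 and lower for 2, led by Sfrp1, a secreted Wnt inhibitor (4.07), and Ltbp4, a latent TGF-beta binding protein (2.62). Within retinoic acid metabolism, 4 of 14 were higher and 2 lower. The synthesis enzyme Rdh10 was lower by 2.57 and detected in 2 mutant and 44 cap cells, while the nuclear receptor genes Rarb and Rarg were higher by 1.26 and 1.54. Hedgehog co-receptor genes Boc and Cdon were higher by 1.32 and 1.14, 2 of 10 listed. Among 22 axon guidance genes 5 were higher and 1 lower. The higher ones were the netrin gene Ntn1 (2.47) and the semaphorin genes Sema5a (2.52), Sema3d (2.24), Sema3a (2.14) and Sema3c (1.35). FGF response genes were lower for 6 of 10 and higher for none (median -1.34, and -0.70 in the matched range), and included Etv4, an ETS factor, at -1.54, and Spry2, a feedback inhibitor of receptor kinases, at -1.69 over all cells and -0.44 in the matched range. Of 10 canonical Wnt targets 5 passed the detection filter, of which 1 was lower, Znrf3, and Axin2 differed by -0.75. Of all genes compared, 4.51% were higher and 23.2% lower over all cells.

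Contractile genes were mixed. Myl9, a myosin light chain, was higher by 3.87, and Rgs5, a pericyte gene, by 2.20, whereas Des, the intermediate filament desmin, was lower by 2.27, with detection in 3 mutant and 42 cap cells. In the mural and smooth muscle list 4 of 12 were higher and 2 lower, where 4.51% of all genes were higher and 23.2% lower. Actin-binding and calcium-binding cytoskeletal genes were higher for 10 of 18, led by S100a6 (4.75), Lgals1 (4.51), Cnn2, a calponin (4.13), and the intermediate filament gene Vim (3.72), and 1 was lower, the tropomyosin gene Tpm2 (-2.02).

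**Figure D4:**
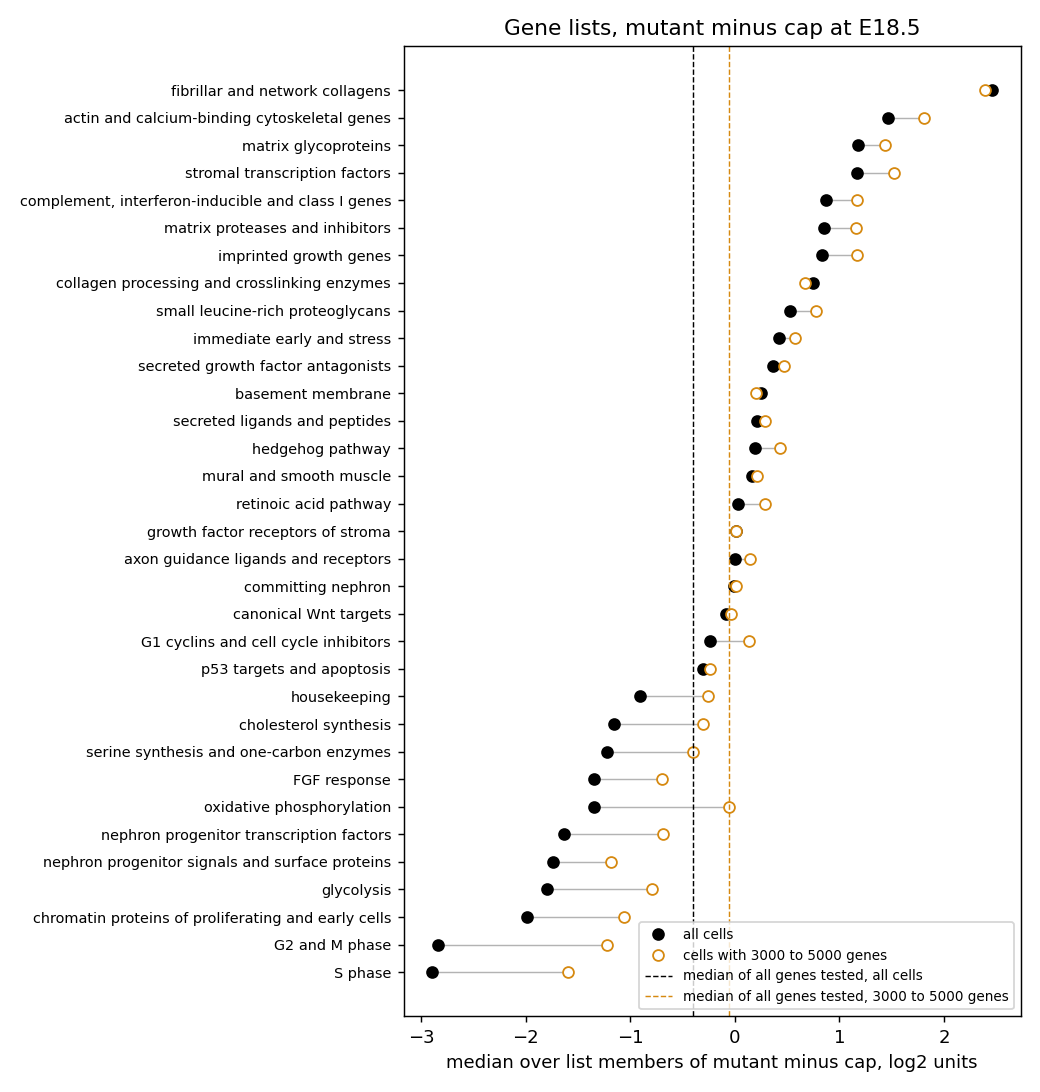
Median over the members of each gene list of the difference between mutant and wild-type cap cells in log2 units, in all cells (filled points) and in cells with 3000 to 5000 detected genes (open points), with dashed lines at the medians of all genes compared (-0.40 and -0.06). Collagens lie near 2.4 in both (2.46 and 2.39), and cell cycle lists lie lowest but move toward 0 in the matched range (S phase -2.90 and -1.60, G2 and M phase -2.84 and -1.22).

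Genes of the cell division cycle were the most uniform group among the lower genes. Values were lower for 19 of the 20 genes listed for S phase and for 21 of the 22 listed for G2 and M phase, and for 15 of each in the matched range, where the background was 10.5%. Top2a, which encodes topoisomerase II alpha, had 0, 0 and 744.8 RPKM as its lowest, median and highest values in mutant cells and 0, 131 and 811.8 RPKM in cap cells. Only 2 of 44 mutant cells (4.55%, interval 0.555 to 15.5%) and 63 of 74 cap cells (85.1%, interval 75 to 92.3%) had it at 1 RPKM or more. Ube2c, the ubiquitin-conjugating enzyme of the anaphase-promoting complex, was detected in 10 mutant and 57 cap cells (-4.03), and Hmgb2, a high-mobility-group DNA-binding protein, in 15 mutant and 71 cap cells (-4.84). The G2 and M list mean was 0.69 ± 1.05 in mutant and 3.56 ± 2.43 in cap cells (log2 scale, SD, n = 44 and 74 cells). A single mutant cell, at 7.12, reached the upper cap range, and the median mutant cell was at 0.47.

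Promoters of cell cycle genes are known for CCAAT boxes, bound by NF-Y, and for the cell cycle homology region TTTGAA, bound by the DREAM and MuvB complexes. The 250 bases before the annotated start of Top2a (chr11:99024190-99024439, minus strand), Ube2c (chr2:164769679-164769928, plus strand) and Hmgb2 (chr8:57511593-57511842, plus strand) are shown because these genes are among the 30 largest negative differences and each promoter holds several CCAAT boxes and at least 1 cell cycle homology region. The sequences are from RefSeq on GRCm38.p6, written 5′ to 3′ on the strand of the gene, and capitals mark CCAAT or its complement ATTGG and TTTGAA or its complement TTCAAA.
Top2a: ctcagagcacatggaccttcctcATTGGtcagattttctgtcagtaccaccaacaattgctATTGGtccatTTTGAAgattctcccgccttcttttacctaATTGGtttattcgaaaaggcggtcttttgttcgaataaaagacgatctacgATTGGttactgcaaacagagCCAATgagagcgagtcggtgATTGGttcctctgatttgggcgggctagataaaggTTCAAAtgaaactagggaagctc
Ube2c: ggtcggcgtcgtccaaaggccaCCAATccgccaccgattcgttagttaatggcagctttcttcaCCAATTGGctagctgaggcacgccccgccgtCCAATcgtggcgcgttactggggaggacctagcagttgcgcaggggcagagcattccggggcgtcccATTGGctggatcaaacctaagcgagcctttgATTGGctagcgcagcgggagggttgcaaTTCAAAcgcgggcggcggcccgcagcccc
Hmgb2: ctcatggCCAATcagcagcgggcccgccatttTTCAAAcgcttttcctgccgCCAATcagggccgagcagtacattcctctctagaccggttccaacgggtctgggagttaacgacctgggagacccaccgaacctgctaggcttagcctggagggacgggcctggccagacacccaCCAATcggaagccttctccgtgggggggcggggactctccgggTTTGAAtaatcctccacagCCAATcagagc

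Within these windows Top2a held 8 matches, Ube2c 7 and Hmgb2 6, counting the overlapping CCAAT and ATTGG in Ube2c as separate. Over the whole G2 and M list, 18 of 22 genes matched to 19 promoters, of which 17 (89.5%) held CCAAT on either strand, and 8 (42.1%) held TTTGAA. In all 32851 promoters of the same length, 33.9% held CCAAT and 15.99% held TTTGAA. The S phase list, with 18 of 20 genes matched to 23 promoters, had CCAAT in 13, TTTGAA in 2 and the E2F motif TTCCCGC in 7, against 3.82% of all promoters for the E2F motif and 0 of 19 for the G2 and M list. The collagen list, whose called members were higher, had CCAAT in 2, TTTGAA in 3 and TTCCCGC in 0 of 10 promoters, so TTTGAA was not particular to the lists of lower genes. A match describes letters in a window and says nothing about binding in these cells.

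Genes outside replication and mitosis went with these lists in part. Cdkn1c, the cyclin-dependent kinase inhibitor p57, had 0.629, 814 and 4327 RPKM as lowest, median and highest values in mutant cells and 0, 22.3 and 335.2 RPKM in cap cells. Its mean was 9.27 ± 2.10 in mutant and 4.09 ± 2.52 in cap cells (SD, n = 44 and 74 cells), a difference of 5.18 and, in the matched range, of 4.75. The median mutant cell lay above the highest cap cell, although the lowest mutant cells were below the cap median. Ccnd2, a D-type cyclin, was also higher (3.05, and 2.98 in the matched range), and Cdk4, the kinase that D-type cyclins activate, was lower (-2.84, and -1.53 in the matched range). In the list of G1 cyclins and inhibitors 3 of 20 were higher and 5 lower over all cells, where 23.2% of all genes were lower, and 5 were higher and 1 lower in the matched range. Cdc20 and Tyms were at 1 RPKM or more in nearly every cell of both groups, 44 and 43 of 44 mutant cells and all 74 cap cells, unlike the other members of their lists.

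Chromatin proteins of proliferating and early embryonic cells were lower for 15 of 20 and higher for none, with a median of -1.98 over all cells and -1.06 in the matched range. Hmga2, an architectural protein of early embryonic and progenitor cells, had a median of 0 RPKM (range 0 to 93.4) in mutant cells and 36.4 RPKM (range 0 to 603.1) in cap cells. It was found in 4 of 44 mutant cells and 66 of 74 cap cells and was lower by 4.42, and by 3.73 in the matched range. The polycomb genes Ezh2 and Suz12 were lower by 3.75 and 2.44, and Dnmt1, the maintenance DNA methyltransferase, by 2.51. Among the 30 largest negative differences outside the lists, Sox11, an SRY-related factor of embryonic progenitors, was detected in 21 of 44 mutant and all 74 cap cells (-4.60), and Fabp5, a fatty-acid-binding protein, in 4 mutant and 59 cap cells (-4.33). The claudin gene Cldn9 was listed at 0 in all 44 mutant cells and detected in 52 of 74 cap cells, and 13 of the 26 cap cells in the matched range had it.

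Fewer metabolic genes were lower in the matched range than over all cells, and the share of all genes that were lower also fell, from 23.2% to 10.5%. Oxidative phosphorylation genes were lower for 9 of 14 over all cells but for 1 of 14 in the matched range, where 2 were higher and the median was -0.05. Ndufa1, a subunit of complex I, was the exception at -2.74 over all cells and -2.24 in the matched range. Glycolysis genes were lower for 11 of 14 over all cells and 6 in the matched range, where Gapdh remained at -2.14 and Aldoa stood at 1.16. Cholesterol synthesis genes were lower for 8 of 14 and for 0 in the matched range. Serine and one-carbon enzymes were lower for 7 of 14 and for 2 in the matched range, among them Phgdh (-3.79). Phgdh, the first enzyme of serine synthesis, was found in 4 of 44 mutant cells and 60 of 74 cap cells.

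**Figure D5:**
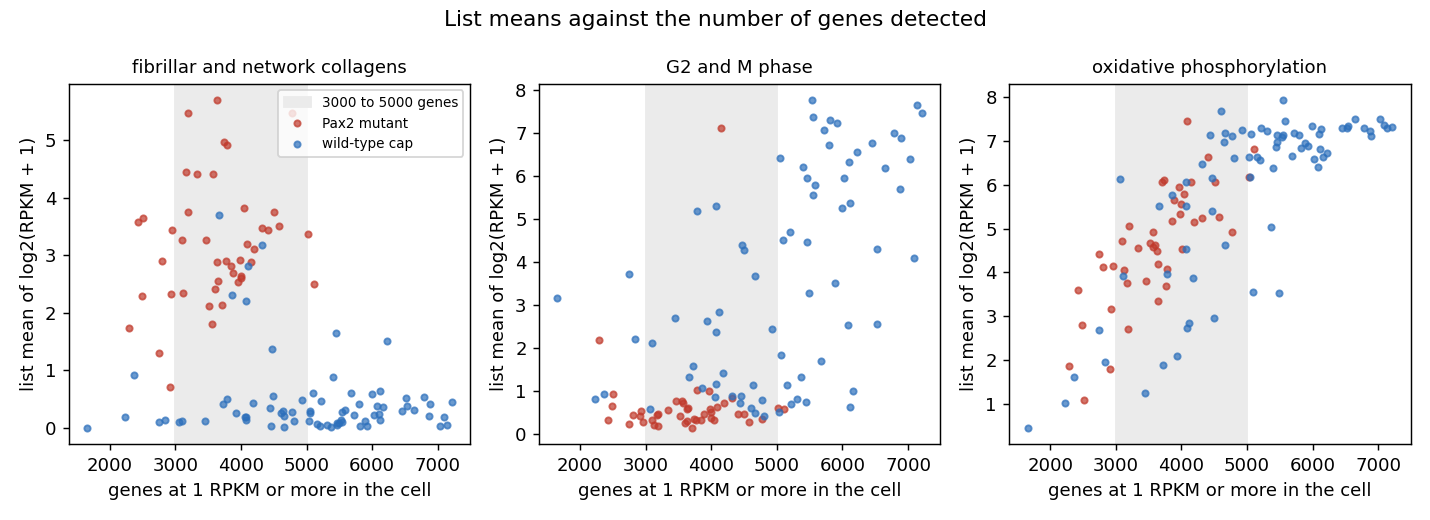
Mean of log2(RPKM + 1) over 3 gene lists in each E18.5 cell (y axis) against the number of genes detected in the cell (x axis), mutant cells in red and wild-type cap cells in blue, with the range of 3000 to 5000 genes shaded. In the shaded range 5 of 26 cap cells reach the lowest mutant collagen mean (1.81), G2 and M means are high mainly in cap cells above 5000 genes, and oxidative phosphorylation means are larger at higher gene numbers in both groups (list means in the shaded range 4.98 in mutant and 5.06 in cap cells).

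Imprinted growth genes were higher for 9 of the 18 measured and lower for 1. Meg3 and Rian, non-coding RNAs of the same imprinted domain of chromosome 12, were at 1 RPKM or more in 43 and 39 of 44 mutant cells and in 14 and 10 of 74 cap cells. Their means in mutant cells, 5.77 ± 1.55 and 5.09 ± 2.40, were also above those in interstitium cells, 2.05 ± 2.18 and 1.71 ± 2.30 (SD, n = 44 and 71 cells), but interstitium cells came from pools 2 and 3, had Y-linked transcripts without Xist in 70 of 71 cells and had a median of 5178 detected genes, so genotype, sex, pool and cell type cannot be told apart there. H19, a maternally expressed non-coding RNA, was higher by 2.77, and Igf2, the growth factor gene beside it, by 2.96. Peg12 was the lower member (-3.90, and -2.10 in the matched range). Among immediate early and stress genes, 7 of 20 were higher and 1 lower, with Klf4 at 1.42 and Junb at -1.18, both genes of transcription factors. Of 12 p53 targets and apoptosis genes, 4 were lower over all cells, beside 23.2% of all genes. In the matched range 2 were lower, Mdm2 and Bcl2l11, beside 10.5% of all genes. Housekeeping genes were higher for 2 of 12 and lower for 6, with a median of -0.90 over all cells and -0.26 in the matched range. Actb, beta-actin, was higher by 1.41 and Hprt lower by 2.63, and in the matched range 2 of the 12 were higher and 1 lower.

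Transcripts of most other cell types on the lists were rare in mutant cells. The 10 loop and distal tubule markers were listed at 0 in every mutant cell, as were 10 of 12 epithelial adhesion genes and 7 of 10 proximal tubule genes. Podocyte markers had a median summed level of 24.2 RPKM (maximum 1845) in mutant cells and 12.2 RPKM (maximum 226.4) in cap cells, and the list includes Tcf21, which stroma also expresses. Podxl, which encodes a podocyte sialomucin, was listed at 0 in all cells of both groups. The summed level of the 10 endothelial markers ran from 0 through a median of 0 to 212.7 RPKM in mutant cells and from 0 through 0 to 63.6 RPKM in cap cells. The summed level of the 10 immune markers had a median of 0 RPKM in both groups and a maximum of 10464 RPKM in mutant and 116.6 RPKM in cap cells. The high value came from 1 mutant cell with 8 of 10 immune markers, 224 RPKM of the leukocyte gene Ptprc and 258 RPKM of C1qb, and only 3.57 RPKM of Col1a1. Without this cell 525 genes were higher and 2546 lower. Elavl4, a neuronal RNA-binding protein gene, and Col2a1, the cartilage collagen gene, were listed at 0 in all mutant cells and detected in 35 and 34 of 74 cap cells. Stmn2, another gene of the neural list, was higher by 1.10, and by 0.45 in the matched range, with detection in 15 mutant and 11 cap cells. Hoxb7, used as a marker of ureteric epithelium, was detected in 4 mutant and 41 cap cells.

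Detection alone picked out few genes. In 80% of mutant cells and at most 10% of cap cells 8 genes were detected (0.0721%), and in the opposite pattern another 8 (0.0721%). The mutant-detected genes included Col6a3, Sparcl1, Dlk1, and Plac9a, Plac9b and Gm9780, of which the last 3 had nearly the same values in each group and are copies whose reads cannot be told apart. The cap-detected genes included Six2, Eya1, Phgdh, Foxd2os, Hmga2, Top2a and Six3. Six3, a SIX-family homeobox gene next to Six2 on chromosome 17, was chosen after its values were seen. Six3 was listed at 0 in all 44 mutant cells and detected in 60 of 74 cap cells, a difference of -3.47, and of -2.75 in the matched range. Six3 was also detected in none of the 71 interstitium cells.

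At E13.5, where mutant and cap cells came from 1 pool but have different dates in their titles and mostly showed transcripts of different sexes, 164 of 11449 genes were higher (1.43%) and 3170 lower (27.7%) in mutant cells. Of the genes higher at E18.5, 8.78% were also higher at E13.5, and these were 26.8% of the genes higher at E13.5. Of the genes lower at E18.5, 63.4% were also lower at E13.5, and these were 51.4% of the genes lower at E13.5. Mutant cells had fewer detected genes at E13.5 too (median 4560 against 5566 in cap cells), and the median gene differed by -0.45. No comparison in cells of like gene number was made at that age, so the part of gene number in the shared lower genes was not tested. Nfib differed by 3.69 at E13.5, with detection in 26 of 29 mutant and 5 of 18 cap cells. Olfml3, which encodes a secreted olfactomedin-like protein, differed by 3.16, and Lpar1 by 2.66. In contrast Penk differed by 0.35, Robo2 by 0.50 and Vcan by -0.82 at E13.5. Whether the differences at the 2 ages differ was not tested, since each group is 1 sample.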

How the data were processed

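Each sample was 1 cell. Values are RPKM in a table the authors deposited, and per the submitters' processing notes reads were aligned to mm10 with TopHat, whose version, gene models and counting rule are not given in the sources used here. Counts were not used, the depth of each cell is unknown, no count model was fitted, and detected genes (1 RPKM or more) stood in for depth. Doublets were not called.

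From the deposited RPKM, log2(RPKM + 1) was averaged over the cells of a group in Python 3.11.15 (numpy 2.4.6, pandas 2.3.3, scipy 1.17.1). A gene entered the comparison when at least 10% of mutant or of cap cells had it. The procedure was checked on groups drawn at random from the wild-type cap cells, with chosen genes multiplied by a known factor. Both groups came from the same cells, so the check does not bear on differences in gene number or pool. The 43 gene lists hold 627 distinct genes, of which 622 matched an entry. Genes named are the markers, list members, and the 30 largest differences in each direction among genes that at least 50% of cells in the group with the higher mean had, and past 1 log2 unit in both sets of cells, without Gm and Rik models, mitochondrial, ribosomal protein and haemoglobin genes. The cells, lists and named genes were chosen with earlier results of these data known. Positions are those of the deposited table. Upstream sequences are from RefSeq on GRCm38.p6. Alternatives changed the pseudocount, scaling, filter and choice of cells. A few genes that the rule names are not reported here.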

Additional observations from a re-analysis of the deposited data

How the results depend on the processing

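The main counts were 501 genes higher and 2573 lower. With a pseudocount of 0.1 RPKM they were 846 and 4862, and with 10 RPKM 203 and 574. The Pax2 difference of -2.64 became -5.2 and -0.84 under these pseudocounts. A filter at 50% of the cells of either group left 4623 genes, of which 296 (6.40%) were higher and 1954 (42.3%) lower. The main shares were 4.51% and 23.2%. Cells with 3000 to 5000 genes gave 978 higher and 1125 lower, so that 46.5% of the called genes were higher, against 16.3% over all cells. The log2 ratio of group mean RPKM gave 2070 higher and 2475 lower (45.5% higher). Of settings chosen after seeing the data, cells with 3500 to 4500 genes (23 mutant and 16 cap cells) gave 1394 higher and 1047 lower (57.1% higher) and turned the median of oxidative phosphorylation genes to 0.78, and cells with 3000 to 5000 genes without those high in the pseudogene (32 mutant and 14 cap cells) gave 764 higher and 1853 lower (29.2% higher). The cause was not tested. Across the 12 alternatives, 666 of 720 values for the 60 ranked genes and 478 of 516 list medians moved by less than the SD between cells, and among those past 1 log2 unit over all cells, the oxidative phosphorylation median was the only one to change sign.

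No paired analysis was possible because cell numbers in the titles only name cells and no label ties a mutant cell to a cap cell. Without replicate embryos the differences carry no replicate check, genotype cannot be told apart from date, pool and embryo, and depth per cell is unknown.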

Other observations

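Mutant cells differed among themselves. Wt1 was detected in 25 of 44 mutant cells and Penk in 41 of 44. All 25 cells with Wt1 also had Penk, while 16 cells had Penk alone of the pair. Sfrp4, a secreted Wnt inhibitor gene, and Agtr2, the type 2 angiotensin receptor gene, were detected in 27 and 23 mutant cells, and 17 cells had both. Lum was detected in 14 cells, and each of these also had Dcn. Wt1 was found with Lum in 4 cells, and alone of the pair in 21. Where they were detected, median levels were 69.2 RPKM for Wt1, 229 RPKM for Agtr2, 245 RPKM for Sfrp4 and 274 RPKM for Dcn. These genes were chosen after their values were seen, so the pairs are a description and were not tested. Fmo1, a flavin-containing monooxygenase gene also chosen after its values were seen, was detected in 19 mutant cells and in none of the 74 cap cells, which has an exact upper limit of 4.86%.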
